A study of Homo sapiens with 12 samples.

Results

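The GADD45 genes and the inhibitors of cyclin-dependent kinases (CDKs) were followed in HK-2 cells, an immortalised line of human proximal tubular epithelium, after exposure to the compound labelled CdCl. The set was fixed by gene symbol: GADD45A, GADD45B, GADD45G, CDKN1A, CDKN1B, CDKN1C, CDKN2A, CDKN2B, CDKN2C and CDKN2D. A probe set counted if its annotation held exactly 1 symbol and that symbol was in the set, and each gene was read on the brightest of its probe sets, by the mean of all 12 arrays. In this way 9 of the 10 genes were measured, on 20 probe sets, of 19775 genes with such a probe set in all. CDKN2C was not analysed here. All 9 had values over 4 on the log2 scale on at least 3 arrays and were among the 10683 genes tested, GADD45G only through the 3 CdCl arrays at 48 h, so that a difference there came with its passing.

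The 4 groups of 3 biological replicates, 1 array each, were HK-2 cells given CdCl for 12 h, CdCl for 48 h, control vehicle for 12 h and control vehicle for 48 h. All were grown in the same medium with insulin, transferrin, selenite, hydrocortisone, epidermal growth factor, Glutamax, penicillin and streptomycin, and were treated near confluence. No dose is named in the labels used here. The line is a single immortalised line, and as background, HK-2 cells carry papillomavirus genes whose products act on p53 and on the retinoblastoma protein; p53 acts upstream of CDKN1A, and the retinoblastoma protein downstream of the kinases that the inhibitors block.

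The GADD45 proteins are small nuclear proteins made under genotoxic and other stress. They bind PCNA and the CDK1-cyclin B kinase and activate the kinase MAP3K4 upstream of p38 and JNK. The CDK inhibitors fall into families. The CIP/KIP proteins (CDKN1A, or p21; CDKN1B, or p27; CDKN1C, or p57) bind a wide range of cyclin-CDK complexes. The INK4 proteins (CDKN2A, CDKN2B, CDKN2C and CDKN2D) bind CDK4 and CDK6 and thereby keep retinoblastoma family proteins active, and the CDKN2A locus also encodes ARF, which stabilises p53.

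Promoter sequences from RefSeq (GRCh38.p14) were matched by symbol for 8 of the 10 genes. The windows shown are the 250 bases before the annotated start of GADD45B, GADD45G, CDKN1A and CDKN1B. The CdCl effect on GADD45B was larger at 48 h than at 12 h, and GADD45G was over the floor only with CdCl at 48 h. CDKN1A rose at both times, and CDKN1B alone passed as lower with CdCl on the probe sets used. Windows of the other members are not shown. The sequences are written 5′ to 3′ on the gene's strand, and capitals mark matches to the motifs named after them.
GADD45B, chr19:2475877-2476126, plus strand: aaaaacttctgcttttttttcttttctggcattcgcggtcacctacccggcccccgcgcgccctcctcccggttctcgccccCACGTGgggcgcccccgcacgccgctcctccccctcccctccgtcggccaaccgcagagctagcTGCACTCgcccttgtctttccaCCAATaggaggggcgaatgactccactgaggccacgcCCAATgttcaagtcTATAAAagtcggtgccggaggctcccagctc
GADD45G, chr9:89604762-89605011, plus strand: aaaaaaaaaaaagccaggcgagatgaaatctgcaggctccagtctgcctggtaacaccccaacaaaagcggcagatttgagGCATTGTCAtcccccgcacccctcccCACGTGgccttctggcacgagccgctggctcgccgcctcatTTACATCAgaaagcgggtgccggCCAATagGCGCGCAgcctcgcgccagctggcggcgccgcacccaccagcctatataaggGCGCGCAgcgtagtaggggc
CDKN1A, chr6:36678464-36678713, plus strand: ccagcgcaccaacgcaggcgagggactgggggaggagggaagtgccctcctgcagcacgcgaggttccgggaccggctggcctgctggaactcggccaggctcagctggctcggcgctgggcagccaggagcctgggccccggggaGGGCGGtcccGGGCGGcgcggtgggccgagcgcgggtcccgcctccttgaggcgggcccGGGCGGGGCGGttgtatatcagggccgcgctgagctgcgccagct
CDKN1B, chr12:12717118-12717367, plus strand: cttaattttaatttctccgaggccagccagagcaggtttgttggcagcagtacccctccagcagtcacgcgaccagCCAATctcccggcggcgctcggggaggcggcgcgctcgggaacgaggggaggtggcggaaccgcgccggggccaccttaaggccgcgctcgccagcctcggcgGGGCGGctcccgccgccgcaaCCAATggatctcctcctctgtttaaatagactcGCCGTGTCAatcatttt

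These motifs, 8 in number, were searched on both strands: the TATA box (TATAAA), the CCAAT box (CCAAT), the GC box (GGGCGG), the E-box (CACGTG), the AP-1 element (TGANTCA), the metal response core (TGCACNC or TGCGCNC), the antioxidant response core (TGACNNNGC) and the C/EBP-ATF element (TGATGNAA). The GADD45B window held a TATA box, at -31 to -26 from the start, as do 10.7% of the 35114 windows of this length. It also held an E-box, a metal response core at -104 to -98 and CCAAT boxes at -82 and -45. The GADD45G window held an E-box too (6.3% of all windows hold one), together with a CCAAT box at -79, metal response cores at -72 and -20 (24.8% of windows hold at least 1), an antioxidant response core (10.9%) and a C/EBP-ATF element (3.1%). The CDKN1A window held GC boxes only, 4 of them, of which the last pair, at -45 and -40, share a base (42.6% of windows hold at least 1). The CDKN1B window held CCAAT boxes at -174 and -50 (32.0% of windows hold at least 1), a GC box and an antioxidant response core. No AP-1 element was found in these 4 windows (6.6% of windows hold one). A match is a description of the letters and not a bound site.

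With CdCl, GADD45A rose 8.01-fold at 12 h and 4.04-fold at 48 h, GADD45B 3.34-fold and 28.8-fold, and GADD45G was seen above the floor only in the CdCl arrays at 48 h. Among the CDK inhibitors CDKN1A, CDKN1C and CDKN2B rose at both times, CDKN1B fell at both times, and neither CDKN2A nor CDKN2D passed the test on its main probe set. All tests are contrasts of 1 limma fit over the 12 arrays, with p-values adjusted by Benjamini-Hochberg over the 10683 genes.

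At 12 h, 6 of the 9 members passed, 5 higher and 1 lower, where 56.4% of all genes tested passed, 16.7% higher and 39.7% lower. At 48 h, 7 passed, 6 higher and 1 lower, against 54.6% of all genes, 26.5% higher and 28.0% lower. GADD45G is 1 of those 7, and its place among the genes tested itself required the high CdCl arrays. In these members the CdCl and control arrays did not overlap, as was so for 66.4% of all genes at 12 h and 60.0% at 48 h. The share of members that passed at all is thus near that of all genes at 12 h and above it at 48 h, where GADD45G is counted. This difference in share was not tested. The members that passed were mostly higher. The median change of the 9 members was 0.76 at 12 h and 1.56 at 48 h on the log2 scale (1.08 at 48 h with GADD45G at its lower bound), and that of all genes -0.16 and -0.02. Of all genes tested, 8.48% passed with a change of at least 2-fold at 12 h and 9.88% at 48 h, and of the members 3 at 12 h (GADD45A, GADD45B and CDKN1A) and 5 at 48 h (these and CDKN1C and CDKN2B), with GADD45G at 48 h known only to a lower bound under 2-fold. Lower genes were 70.4% of all calls at 12 h, and 52.1% after each array was centred on the median of the genes tested, a setting chosen after seeing the data. The members' counts were the same there, 5 higher and 1 lower at 12 h and 6 and 1 at 48 h.

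**Figure D1:**
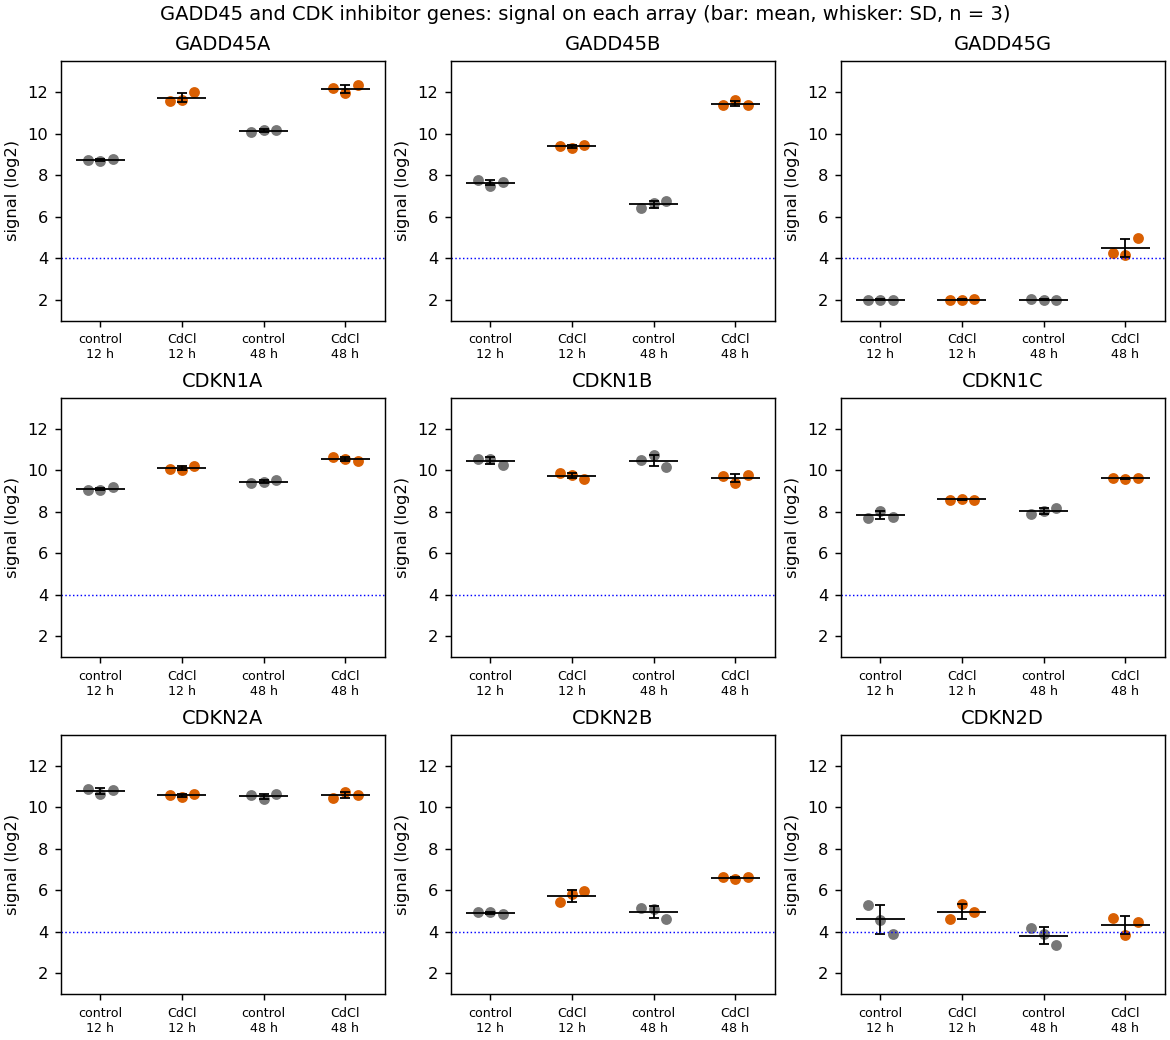
Signal (log2) of the 9 measured genes on each of the 12 arrays, by group; points are arrays, bars the mean and whiskers the SD of 3 arrays, and the dotted line is the floor of 4. GADD45A, GADD45B, CDKN1A, CDKN1C and CDKN2B lie higher and CDKN1B lower in CdCl than in control arrays at both times, and GADD45G leaves the floor only with CdCl at 48 h.

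GADD45A, which binds PCNA and can hold cells at the G2/M boundary, gave log2 signals of 8.72, 8.69 and 8.80 in the control arrays at 12 h and 11.59, 11.63 and 12.00 in the CdCl arrays. At 48 h it gave 10.07, 10.20 and 10.17 in control and 12.18, 11.94 and 12.36 in CdCl arrays. The CdCl arrays lay above the controls at each time with no overlap. The change was 3.00 ± 0.12 (log2, SE of the fit; adjusted p = 4.9e-09) at 12 h and 2.01 ± 0.12 (adjusted p = 1.1e-07) at 48 h. The smaller change at 48 h went with a higher control, which rose by 1.41 ± 0.12 from 12 h to 48 h (adjusted p = 1.6e-06). CdCl cells differed less between the times, by 0.42 ± 0.12 (adjusted p = 0.0095), with arrays of both times overlapping. The CdCl effect at 48 h minus that at 12 h was -0.99 ± 0.17 (adjusted p = 0.00099). Only 1 probe set named this gene.

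GADD45B, the family member known for its induction by TGF-beta and NF-kB and for restraining JNK signalling, gave 7.78, 7.50 and 7.66 in control and 9.41, 9.31 and 9.44 in CdCl arrays at 12 h. The 48 h values were 6.42, 6.65 and 6.75 in control and 11.37, 11.60 and 11.39 in CdCl arrays. All 4 groups lay apart: the control fell with time while the CdCl cells rose. The CdCl change was 1.74 ± 0.10 at 12 h (adjusted p = 1.4e-07) and 4.85 ± 0.10 at 48 h (adjusted p = 6.4e-11), and the latter was the 6th largest in size among all genes tested. The change from 12 h to 48 h was -1.04 ± 0.10 in control (adjusted p = 5.7e-06) and 2.07 ± 0.10 in CdCl cells (adjusted p = 1.7e-08). The CdCl effect was larger at 48 h by 3.11 ± 0.15 (adjusted p = 2.9e-07), the 11th largest difference in size among all genes.

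GADD45B had 4 probe sets, and they moved the same way with CdCl at 48 h. Beside the one above, the second changed by 1.62 ± 0.10 at 12 h and 4.74 ± 0.10 at 48 h, and the third by 2.39 ± 0.14 and 5.01 ± 0.14. The fourth exceeded 4 on 2 arrays only, both of CdCl at 48 h, where it gave 4.66, 3.59 and 4.47 against 2.81, 2.69 and 2.75 in control. The fall of the control with time was seen on the second (-0.89 ± 0.10, adjusted p = 1.7e-05) but did not pass on the third (-0.29 ± 0.14, adjusted p = 0.092).

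GADD45G, a family member linked to growth arrest and differentiation, lay between 1.99 and 2.01 on all 9 arrays of the other groups, at the bottom of the signal scale. In the CdCl arrays at 48 h it gave 4.28, 4.18 and 4.99, a mean of 4.48 ± 0.44 (SD, n = 3) against 2.00 ± 0.01 in control. Against the floor of 4 this is at least 1.40-fold higher. The adjusted p of the limma fit (1.9e-07) is for the whole difference from the control signal and not for this bound. GADD45G was tested only through these CdCl arrays, so that p-value carries no weight. Since the CdCl arrays themselves lie little above the floor, the size of the rise is not measured well. At 12 h both groups were under the floor and no fold is given.

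CDKN1A, the inhibitor best known as a p53 target, gave 9.07, 9.07 and 9.19 in control and 10.08, 10.04 and 10.21 in CdCl arrays at 12 h. The values at 48 h were 9.40, 9.45 and 9.52 in control and 10.64, 10.53 and 10.44 in CdCl arrays. The groups did not overlap at either time. The change was 1.00 ± 0.08 at 12 h (adjusted p = 9.4e-07) and 1.08 ± 0.08 at 48 h (adjusted p = 3.9e-07). A difference between the times was not detected: it was 0.07 ± 0.11, with a 95% interval of -0.16 to 0.31 (adjusted p = 0.63). Both the control (0.35 ± 0.08, adjusted p = 0.0019) and the CdCl cells (0.42 ± 0.08, adjusted p = 0.00044) were higher at 48 h than at 12 h.

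CDKN1B, which inhibits CDK2 complexes and accumulates in resting cells, went the other way. It gave 10.57, 10.54 and 10.26 in control and 9.87, 9.78 and 9.60 in CdCl arrays at 12 h. The 48 h values were 10.48, 10.72 and 10.19 in control and 9.73, 9.42 and 9.78 in CdCl arrays. Every CdCl array lay below every control array of its time. The change was -0.71 ± 0.15 at 12 h (1.63-fold lower, adjusted p = 0.0015) and -0.82 ± 0.15 at 48 h (1.77-fold lower, adjusted p = 0.00053). Neither the difference between these effects (-0.11 ± 0.21, 95% interval -0.56 to 0.34) nor time in control passed (adjusted p = 0.69 and 0.98).

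CDKN1C, an imprinted gene whose product restrains growth in development, gave 7.72, 8.06 and 7.75 in control and 8.60, 8.61 and 8.59 in CdCl arrays at 12 h. At 48 h it gave 7.92, 8.05 and 8.20 in control and 9.63, 9.57 and 9.64 in CdCl arrays. The groups did not overlap at either time. The change grew from 0.76 ± 0.10 at 12 h (adjusted p = 4.8e-05) to 1.56 ± 0.10 at 48 h (2.95-fold, adjusted p = 1.3e-07), a difference of 0.80 ± 0.14 (adjusted p = 0.00083).

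The other probe sets of CDKN1C differed in size. At 48 h, the other 3 over the floor changed by 2.78 ± 0.15, 2.16 ± 0.10 and 2.54 ± 0.14, each more than the probe set used. In the same order, at 12 h they changed by 0.28 ± 0.15 (adjusted p = 0.12), 0.53 ± 0.10 (adjusted p = 0.0011) and 0.39 ± 0.14 (adjusted p = 0.030). The fifth lay under the floor on every array. All 4 probe sets over the floor thus rose at 48 h, while the 12 h rise did not pass on 1 of them.

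**Figure D2:**
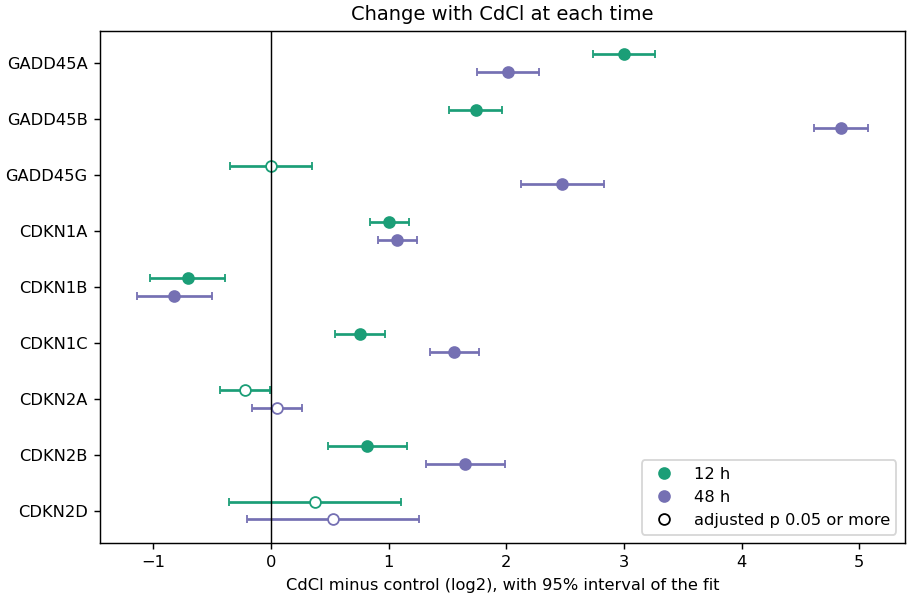
CdCl minus control on the log2 scale for each of the 9 genes at 12 h and 48 h, with the 95% interval of the fit over 12 arrays; open points did not pass the threshold. The intervals of the times do not overlap for GADD45A, GADD45B, CDKN1C and CDKN2B, and overlap for CDKN1A and CDKN1B; the GADD45G point at 48 h is taken against a control under the floor.

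CDKN2B, an INK4 inhibitor known to be induced by TGF-beta, gave 4.93, 4.95 and 4.86 in control and 5.42, 5.81 and 5.96 in CdCl arrays at 12 h. At 48 h it gave 5.16, 5.10 and 4.61 in control and 6.63, 6.56 and 6.64 in CdCl arrays. The CdCl arrays lay above the controls at both times, on a signal not far above the floor. The change was 0.82 ± 0.15 at 12 h (adjusted p = 0.00075) and 1.65 ± 0.15 at 48 h (3.14-fold, adjusted p = 3.3e-06), and it differed between the times by 0.83 ± 0.21 (adjusted p = 0.0098). Its second probe set stayed under the floor on all arrays.

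CDKN2A lies next to CDKN2B on chromosome 9, with no protein-coding gene starting between them in RefSeq. On its brightest probe set it gave 10.89, 10.65 and 10.81 in control and 10.57, 10.47 and 10.65 in CdCl arrays at 12 h, and 10.57, 10.40 and 10.62 against 10.44, 10.73 and 10.57 at 48 h. The groups overlapped at both times. The change was -0.22 ± 0.10 at 12 h (adjusted p = 0.075, or 0.040 without control replicate 2) and 0.05 ± 0.10 at 48 h (95% interval -0.16 to 0.26, adjusted p = 0.68), so that at 48 h a change of the size of that of CDKN2B lies outside the interval. The second probe set above the floor differed. It gave 8.85, 8.70 and 8.58 in control and 8.25, 8.24 and 8.33 in CdCl arrays at 12 h, and 8.34, 8.23 and 8.33 against 7.96, 7.68 and 7.75 at 48 h. On it CDKN2A was lower with CdCl, with changes of -0.43 ± 0.09 at 12 h (adjusted p = 0.0015) and -0.50 ± 0.09 at 48 h (adjusted p = 0.00055). Which transcripts of the locus each probe set reads was not determined here.

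CDKN2D, the INK4 member that varies through the cell cycle, lay near the floor. It gave 5.28, 4.58 and 3.91 in control and 4.63, 5.33 and 4.94 in CdCl arrays at 12 h, and 4.17, 3.88 and 3.36 against 4.67, 3.86 and 4.45 at 48 h. The groups overlapped at both times, and replicates of 1 group differed by more than 1 log2 unit at 12 h. The changes were 0.37 ± 0.33 (95% interval -0.36 to 1.11, adjusted p = 0.36) and 0.53 ± 0.33 (95% interval -0.21 to 1.26, adjusted p = 0.21). A change of 2-fold in size upward is inside both intervals.

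**Figure D3:**
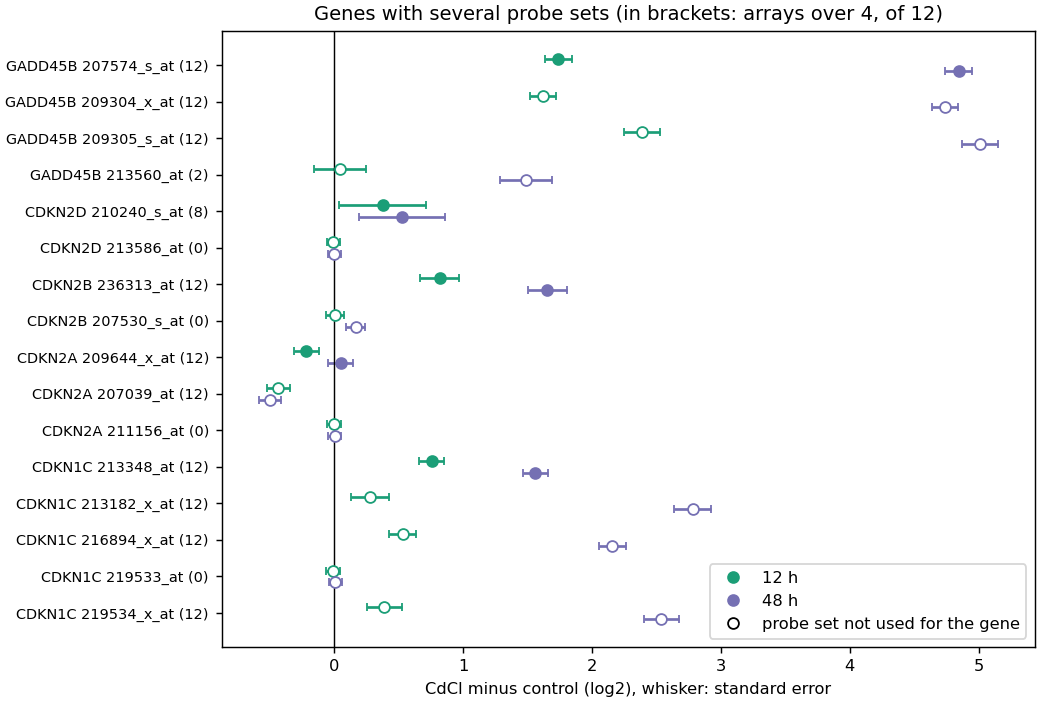
CdCl minus control (log2, whiskers SE of the fit) at 12 h and 48 h on every probe set of the 5 genes with more than 1; filled points are the probe set used, and the number in brackets counts arrays over 4. The probe sets of GADD45B and CDKN1C over the floor rise together at 48 h, and those of CDKN2A differ.

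Several members differed between 12 h and 48 h in control cells, and the part of time in culture itself was not tested. From 12 h to 48 h in control cells 4 of the 9 passed, GADD45A and CDKN1A higher and GADD45B and CDKN2A lower, where 56.9% of all genes passed, 23.4% higher and 33.5% lower. The arrays of both times did not overlap for these 4, as for 64.6% of all genes. The fall of CDKN2A was small (-0.25 ± 0.10, adjusted p = 0.044), and it did not pass without any filter (adjusted p = 0.077), after quantile normalization (adjusted p = 0.076), or after centring on the genes tested (adjusted p = 0.19); it also did not pass without any 1 of 6 arrays, with adjusted p from 0.056 (without CdCl replicate 3 at 48 h) to 0.16 (without control replicate 2 at 48 h). On the second probe set of CDKN2A over the floor the change with time was -0.41 ± 0.09 in control (adjusted p = 0.0019). In CdCl cells it was -0.48 ± 0.09 there (adjusted p = 0.00058). On the probe sets used, 6 members passed in CdCl cells, all higher at 48 h (GADD45A, GADD45B, GADD45G, CDKN1A, CDKN1C and CDKN2B), against 62.3% of all genes in either direction with 34.7% higher and 27.6% lower. The arrays did not overlap for 5 of them, all but GADD45A, against 68.0% of all genes. GADD45G is again among the 6 through the arrays that let it be tested. The CdCl effect differed between the times for 5 of the 9, GADD45G with the same reserve, larger at 48 h for 4 and smaller for GADD45A, where 40.1% of all genes passed, 27.0% with a higher and 13.0% with a lower value at 48 h. Of all these calls 32.6% were lower as deposited and 51.1% after centring on the genes tested, with the members' counts again 4 and 1. These comparisons share arrays with those above.

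The genes whose mean-centred profile over the 12 arrays was closest to that of a member, by root mean square (RMS) difference in log2 units, are given as a description. The spread of a member's own profile (SD) ran from 0.14 for CDKN2A to 1.84 for GADD45B. RMS differences are therefore not to be compared between members. CD55, an inhibitor of complement, was closest to GADD45A (0.24), followed by the zinc finger genes ZNF77 and ZNF555 (both 0.32). SNAI2, a transcription factor of mesenchymal transition, was closest to GADD45B (0.46), followed by SUGCT-AS1 (0.57) and NMRAL2P (0.64). ALOX5AP and ATP6V0D2 were closest to GADD45G (0.15 and 0.16), followed by PLEKHF1 (0.30). The profile of GADD45G is set by the CdCl arrays at 48 h, which also let it be tested. The cholesterol transporter gene NPC1 was closest to CDKN1A (0.11), followed by YRDC and ANO10 (both 0.12). HELQ, DPY19L4 and WLS were closest to CDKN1B (0.094, 0.10 and 0.12). RAP2B and TMEM54 stood in the lists of both CDKN1C (0.15 and 0.16) and CDKN2B (both 0.18), which also held CSRP1 (0.15) and RBKS (0.18) respectively. CDKN2A, with a nearly flat profile, was closest to ARL3, SNRPC and NDUFS3 (0.065, 0.069 and 0.076), and CDKN2D to DGKG, SIMC1 and ATP2B1 (0.24, 0.29 and 0.32).

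The proteins that these inhibitors act on were followed through their own transcripts. Of 12 CDKs and cyclins, 9 were lower and 3 higher with CdCl at 12 h, and 7 lower and 3 higher at 48 h, with median changes of -0.82 and -0.47 against -0.16 and -0.02 for all genes, of which 39.7% were lower and 16.7% higher at 12 h, and 28.0% and 26.5% at 48 h. CCNE2, the cyclin E2 gene of the G1/S transition, changed by -1.55 ± 0.13 and -2.00 ± 0.13, and CDK1, the kinase of mitosis, by -1.12 ± 0.14 and -1.62 ± 0.14. CCND1, the cyclin D1 gene, rose by 0.80 ± 0.16 and 1.37 ± 0.16. The other higher genes, named after their values were seen, were CDK6 at both times (0.45 and 0.63), CCND3 at 12 h (0.29) and CDK4, which was lower at 12 h (-0.27) and higher at 48 h (0.36). The partners of INK4 proteins among the kinases were thus both higher at 48 h.

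Of 10 subunits of ubiquitin ligases that act on CDK inhibitors, 6 were lower and 0 higher at 12 h, and 6 lower and 2 higher at 48 h, with medians of -0.26 and -0.31 against -0.16 and -0.02 for all genes. Of all genes 39.7% were lower and 16.7% higher at 12 h, and 28.0% and 26.5% at 48 h, so the share that passed at 12 h, 6 of 10, is near the 56.4% of all genes. SKP2, the receptor that marks CDKN1B protein for degradation, changed by -1.50 ± 0.09 at 12 h and -1.29 ± 0.09 at 48 h. DTL, a receptor for CDKN1A and CDT1, changed by -1.08 ± 0.11 and -1.61 ± 0.11. RNF123, a ligase subunit for CDKN1B, changed by -0.67 ± 0.23 and then by 0.60 ± 0.23, with adjusted p = 0.027 and 0.047, and the other higher gene at 48 h was DDB1 (0.27), named to complete that count. Messenger levels alone were measured, so that protein turnover was not seen. After centring on the genes tested, 3 of these 10 were lower and 0 higher at 12 h.

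Of 8 listed partners of GADD45 proteins, 5 were tested: 1 was higher and 3 lower at 12 h, and 0 higher and 2 lower at 48 h, with medians of -0.27 and -0.14; of all genes 56.4% passed at 12 h and 54.6% at 48 h. PCNA changed by -0.94 ± 0.09 at 12 h and -1.25 ± 0.09 at 48 h, and MAP2K6, a kinase that activates p38, by -1.08 ± 0.12 and -1.41 ± 0.12. TDG, a DNA glycosylase, rose by 0.62 ± 0.11 at 12 h and changed by 0.27 ± 0.11 at 48 h (adjusted p = 0.055). To complete the list, MAP3K4 was lower at 12 h (-0.27) and MAPK8, which encodes JNK1, did not pass at either time. Of 10 tested pocket proteins and E2F factors, 7 were lower and 0 higher at 12 h, and 5 lower and 0 higher at 48 h, with medians of -0.63 and -0.27; of all genes 39.7% were lower at 12 h and 28.0% at 48 h. E2F2 and E2F1 changed by -1.35 ± 0.10 and -1.10 ± 0.14 at 12 h, but at 48 h by -0.16 ± 0.10 and -0.13 ± 0.14, which did not pass (adjusted p = 0.23 and 0.48). In control cells these genes changed by -1.42 ± 0.10 and -1.53 ± 0.14 from 12 h to 48 h. The CdCl effect at 48 h minus that at 12 h was 1.19 ± 0.15 for E2F2 (adjusted p = 0.00013). For E2F1 it was 0.98 ± 0.20 (adjusted p = 0.0026). At 48 h both groups lay little above the floor (CdCl means 4.35 and 4.48), which is a filter and not the lowest signal on the arrays. Whether the low signal at 48 h hides a change was not tested. TFDP1, the partner of E2F proteins on DNA, changed by -0.97 ± 0.06 and -1.02 ± 0.06.

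Of 18 listed regulators of these genes, 13 were tested. At 12 h 6 were higher and 2 lower, and at 48 h 4 were higher and 6 lower, with medians of 0.24 and -0.09 against -0.16 and -0.02 for all genes. The 8 of 13 that passed at 12 h are near the share of all genes, 56.4%, of which 16.7% were higher and 39.7% lower; at 48 h 54.6% of all genes passed. DDIT3, which encodes the stress factor CHOP, rose by 4.01 ± 0.08 at 12 h and by 0.20 ± 0.08 at 48 h (adjusted p = 0.042), from a control level of 7.48 at 12 h and 12.7 at 48 h. JUN, a subunit of AP-1, rose by 1.91 ± 0.14 and 1.42 ± 0.14. EZH2, the methyltransferase of the Polycomb complex that silences the CDKN2A and CDKN2B loci in many cells, changed by -1.25 ± 0.13 and -1.28 ± 0.13. MDM2, a p53 target that acts on p53 and is named after its values were seen, changed by -0.33 at 12 h and by -0.09 at 48 h (adjusted p = 0.32).

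**Figure D4:**
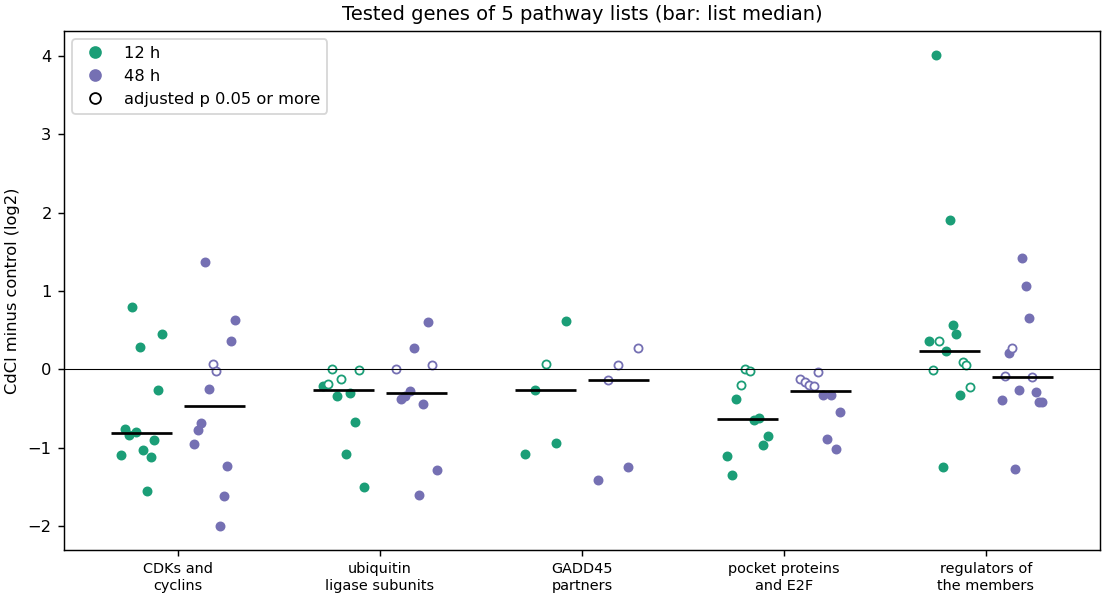
CdCl minus control (log2) at 12 h and 48 h for each tested gene of the 5 pathway lists; bars are list medians and open points did not pass the threshold. Most genes of the CDK and cyclin list and of the pocket protein and E2F list lie below 0 at 12 h, and DDIT3, at 4.01, stands highest.

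The arrays of a group correlated at 0.997 to 0.998 and those of different groups at 0.973 to 0.989. The mean of the poly-A control probe sets, RNAs added before labelling, was 6.39 to 6.63 in control and 6.96 to 7.04 in CdCl arrays at 12 h. At 48 h it was 6.05 to 6.24 in control and 5.74 to 6.64 in CdCl arrays, with CdCl replicate 2 the lowest array. Its part in the results was not tested, but without that array the same counts of members passed at 48 h, 6 higher and 1 lower, and GADD45B changed by 4.77 ± 0.11. Of the cell markers, all 5 of epithelium were over the floor on every array, as were 3 of 9 of proximal tubule (CDH6, CDH16 and GATM), while LRP2, CUBN, AQP1, SLC34A1, GGT1 and ANPEP lay under it on all 12. The summed signal of the 9 tubule markers was 45.8 to 46.6 in control and 43.1 to 44.4 in CdCl arrays at 12 h, and 43.8 to 44.7 and 37.9 to 38.4 at 48 h. That of the 5 epithelial markers was 54.2 to 54.8 in control and 52.9 to 53.2 in CdCl arrays at 12 h, and 55.3 to 55.7 and 55.3 to 55.9 at 48 h. That of 4 fibroblast and mesangial markers was 24.9 to 25.3 and 24.9 to 25.4 at 12 h, and 23.1 to 23.3 in control and 23.7 to 24.3 in CdCl arrays at 48 h. The part of these sums in the results was not tested. All markers measured for endothelium (3), leukocytes (2) and podocytes (2) lay under the floor. COL1A1 and DCN of fibroblasts lay over it on every array. AQP2 of the collecting duct did too, but only just, at 4.09 to 4.56.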

How the data were processed

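Gene expression was measured on 12 Affymetrix arrays of HK-2 cells. The authors deposited log2 values for each probe set, made with GCRMA per the submitters' processing notes; GCRMA corrects background by probe sequence, normalises between arrays and summarises probe sets. No version is named in the sources used here, and the log2 scale was inferred from the range of the values. No detection calls were used, so a log2 value of 4 served as the floor. Of 54675 probe sets, 41091 carried 1 gene symbol in the platform annotation, 1801 several and 11777 none, and 6 more with a symbol were among the 62 control probe sets, which were left out. Where a gene had several, the brightest on average stood for it, which gave 19775 genes; 10683 genes over 4 on at least 3 arrays were tested.

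One limma fit (limma 3.58.1, R 4.3.3, lmFit and eBayes) of the 4 group means, with no replicate block, gave the comparisons. The two-sided p-values were adjusted (Benjamini-Hochberg) over all genes tested and read at 0.05. Replicates are labelled biological. With 3 arrays a group, whose number limits the precision, exact permutation p-values would be 0.1 at the least, so the calls rest on a spread pooled over groups and genes. The fit was tested on simulated data. The members, lists and tests were chosen with earlier results of these data known. Named genes are all members, up to 3 genes of each pathway list with the largest change, and the 3 genes nearest to each member in profile; genes named outside this rule are said to be so or complete a count. Alternatives were other filters, scalings, probe set choices and priors, fits of single comparisons, a replicate block and leaving out each array. Promoters are from RefSeq, and a motif match counts at any overlap.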

Additional observations from a re-analysis of the deposited data

Results flagged for a closer look

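The CdCl effect differed between 48 h and 12 h for GADD45A, GADD45B, CDKN1C and CDKN2B by the interaction term of the limma fit (adjusted p under the threshold over all genes tested). The effect at 48 h minus that at 12 h was 3.11 for GADD45B, with all CdCl arrays above all controls at both times and the larger gap at 48 h. It was 0.83 for CDKN2B and 0.80 for CDKN1C, both higher in 3 of 3 CdCl arrays at each time. It was -0.99 for GADD45A, whose control level rose between the times. On the other CDKN1C probe sets over the floor the difference was larger than on the one used, at 2.50, 1.63 and 2.15. For GADD45G the fit gave 2.47, which is a description only: the gene was under the floor on all arrays but the 3 of CdCl at 48 h, and it was among the genes tested through those arrays alone, so the value has no interpretable size and its test no weight.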

How the results depend on the processing

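The calls of GADD45A, GADD45B, CDKN1A, CDKN1B, CDKN1C and CDKN2B with CdCl at both times kept their direction and side of the threshold wherever tested. This held under the other filters, scalings, priors and sample choices and with the mean of a gene's probe sets. The call of GADD45G at 48 h was kept too. That adds no weight to it, since its place among the genes tested rested on the high CdCl arrays. Read on single other probe sets, CDKN1C at 12 h did not pass on 1 of the 3 others over the floor (0.28, adjusted p = 0.12), nor GADD45B at 12 h on the one over the floor on 2 arrays only (0.05, adjusted p = 0.86). The filter over 6 tested 7 of the 9 genes and left out GADD45G and CDKN2D. CDKN2B passed that filter only through its CdCl arrays at 48 h, so its 48 h call there came with its passing. When each array was left out in turn, 6 to 7 members passed at 12 h, 7 at 48 h, 5 for the difference between the times, 6 for CdCl with time and 3 to 5 for control with time. CDKN2A was the unsteady member. With the mean of its probe sets it passed lower with CdCl at 48 h (-0.15) and lower at 48 h than at 12 h in CdCl cells (-0.15), both against the sign on the probe set used, because its probe sets differ. At 12 h it passed lower with that mean (adjusted p = 0.0047), with a trended robust prior (adjusted p = 0.042) and without control replicate 2 at 12 h (-0.29, adjusted p = 0.040). Centring on the genes tested left 3 of 10 ubiquitin ligase subunits past the threshold at 12 h, where 6 passed as deposited; the cause was not tested. Same-numbered arrays did not deviate together (correlations of deviations -0.34 to 0.16 over 18 pairs, -0.16 to 0.31 over 36 pairs of different number), so no pairing by number was seen. Whether same-numbered samples were handled together is not known from the labels. With the replicate block 6 members passed at 12 h, 7 at 48 h and 3 in control with time, since CDKN2A no longer passed there (adjusted p = 0.059). In control cells CDKN1C passed as higher at 48 h without control replicate 2 at 12 h (0.31, adjusted p = 0.0096) or replicate 1 at 48 h (0.28, adjusted p = 0.043), and CDKN2D as lower without control replicate 3 at 12 h (-1.13, adjusted p = 0.012) or replicate 1 at 48 h (-0.97, adjusted p = 0.050). The cause was not tested. CDKN2A lost that call without replicate 1 of CdCl at 12 h, 3 of CdCl at 48 h, 1 or 3 of control at 12 h, or 1 or 2 of control at 48 h. Signal near the background limits GADD45G, CDKN2D and CDKN2B.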
